A study of Mus musculus with 13 samples.

Results

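The genes described here encode enzymes of de novo ceramide synthesis and regulators of its first step: Sptlc1, Sptlc2, Ormdl1, Ormdl3, Kdsr, Cers2, Cers4, Cers5, Cers6 and Degs1. They were chosen by name for their place in the pathway. They are 10 of the 53392 genes listed in the count table, and 10 of 10 passed the filter on low counts, which kept 14317 genes for testing.

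RNaseq of whole liver from 13 mice was used to compare a genetic with a dietary control for induction of the ceramidase transgene ASAH1. Of 3 groups, 4 ASAH- mice and 5 ASAH+ mice (called induced here) were fed Etoh-Dox, and the other 4 ASAH+ mice (uninduced) were fed Etoh. Every mouse was female, 8 to 14 weeks old at use, and drank a diet with 28% of the calories as ethanol over 4 weeks, with Dox at 200 mg/l for the induced and the ASAH- mice. Counts on genes totalled 17819486 to 35358711 per mouse. All groups carried Albumin-Cre and the Rosa26-loxP-stop-loxP-rtTA allele, and ASAH+ mice also carried TRE-ASAH1, which their ASAH- littermates lacked. Albumin-Cre limits the transgene to hepatocytes, whereas the RNA came from all cells of the liver. In the ASAH+ mice, Dox treatment as written in the titles is the reverse of that in the other labels (descriptions and induction), and these other labels were used. The design text names 4 mice a group, and the 13 mice deposited were all used.

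De novo ceramide synthesis starts in the endoplasmic reticulum, where serine palmitoyltransferase (SPT) joins serine to palmitoyl-CoA. The product is reduced by KDSR, given a fatty acid by a ceramide synthase and desaturated by DEGS1 to ceramide, and ORMDL proteins hold SPT in check when ceramide is high. In liver, CERS2 is known as the ceramide synthase of very-long-chain ceramides, and ceramides that carry palmitate are made mainly by CERS6 and CERS5.

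Asah1 came first, to compare the labels with the data. Its level, in CPM (read counts scaled to library size by the TMM method), was 48.7, 40.0, 53.7 and 55.0 in ASAH- mice, and 46.8, 44.2, 46.8 and 48.3 in uninduced mice. In induced mice it was 10310, 9668, 15130, 12720 and 15940 CPM. The 5 induced mice were thus above the other 8 mice by far, as the labels used give it. Asah1 had a log2 fold change of 8.01 against ASAH- mice (adjusted p = 1.24e-11 by edgeR) and 8.10 against uninduced mice (adjusted p = 1.13e-11 by edgeR). The 6 hepatocyte markers listed, of which Alb was the most abundant, summed to 87020 to 138100 CPM per mouse, and none of the 35 marker genes of 7 cell types was at 0 in all 13 mice. A lower level of a gene in whole liver can come from fewer cells of a type or from less RNA per cell, and these cannot be told apart here.

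Promoter windows from RefSeq (GRCm38.p6), from 250 bases before to 50 bases after each gene start, were found for 10 of the 10 members, in 11 windows. They were searched for a single motif, CACGTG (the E-box, which reads the same on both strands and is bound by clock proteins among other factors). This motif was chosen with earlier results of these data known, outside the planned analyses. It was in 3 of the 11 windows, 1 each of Cers6, Degs1 and Cers2, and in 2349 of 32851 windows of all genes (7.15%). A match is a description of letters, not a site or a cause. These 3 windows are shown because they are all the windows of the members that hold the motif. Each is written 5′ to 3′ on its gene's strand, with the CACGTG in capitals. The Cers6 window is chr2:68861191-68861490 on the plus strand, with the motif 22 bases before the gene start and outside any annotated transcript. The Degs1 window is chr1:182282146-182282445 on the minus strand, with the motif 43 bases before the start and in an intron of the transcripts Degs1-201 and Degs1-202. The Cers2 window is chr3:95314940-95315239 on the plus strand, with the motif 129 bases before the start and in an intron of Cers2-202.
Cers6: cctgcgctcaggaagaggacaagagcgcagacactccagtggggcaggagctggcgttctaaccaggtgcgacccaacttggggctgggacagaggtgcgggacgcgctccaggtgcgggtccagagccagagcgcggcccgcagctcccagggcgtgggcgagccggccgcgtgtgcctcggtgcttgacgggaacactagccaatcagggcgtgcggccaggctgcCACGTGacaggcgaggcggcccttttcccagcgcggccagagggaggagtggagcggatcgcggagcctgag
Degs1: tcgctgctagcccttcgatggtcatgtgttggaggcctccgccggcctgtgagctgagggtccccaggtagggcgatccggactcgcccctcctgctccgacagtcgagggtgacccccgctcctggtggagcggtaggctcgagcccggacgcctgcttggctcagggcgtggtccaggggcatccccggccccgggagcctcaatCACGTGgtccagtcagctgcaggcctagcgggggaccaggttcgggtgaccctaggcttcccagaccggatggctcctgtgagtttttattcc
Cers2: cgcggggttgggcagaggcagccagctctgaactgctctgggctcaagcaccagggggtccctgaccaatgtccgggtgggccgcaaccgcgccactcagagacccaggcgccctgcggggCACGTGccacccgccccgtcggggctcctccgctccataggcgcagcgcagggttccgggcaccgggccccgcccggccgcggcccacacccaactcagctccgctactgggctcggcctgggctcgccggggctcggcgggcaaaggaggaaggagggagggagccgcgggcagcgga

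The levels of the members relative to each other were read per length, as counts per kilobase of the union of a gene's exons, scaled to the same total in every mouse. On this scale Cers2 had the highest level, with a median over 13 mice of 161.8 (136.8 to 182.3). It was followed by Ormdl3 with a median level per length of 81.96 (69.34 to 94.9) and Degs1 with 57.26 (52.14 to 67.4). Sptlc1, at a median level per length of 16.46 (14.31 to 18.73), was lower than Degs1 in every mouse and stood well above its partner Sptlc2, at 5.151 (4.444 to 6.227). Between these subunits of SPT lay Cers6 at a median level per length of 10.72 (7.654 to 14.14), Ormdl1 at 8.66 (7.208 to 10.87) and Kdsr at 7.889 (4.699 to 9.183). Each of the 4 genes from Cers6 to Sptlc2 overlapped with the next in this order: Cers6 was above Ormdl1 in 9 of 13 mice, Ormdl1 above Kdsr in 11, and Kdsr above Sptlc2 in 12. Cers5, with a median level per length of 1.174 (0.675 to 1.344), and Cers4, with 0.4928 (0.3764 to 0.6068), were the lowest and did not overlap with each other or with Sptlc2. With the longest transcript as the length, the levels of Ormdl3 (59.25 to 81.28) and Degs1 (56.26 to 72.8) overlapped as well.

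**Figure D1:**
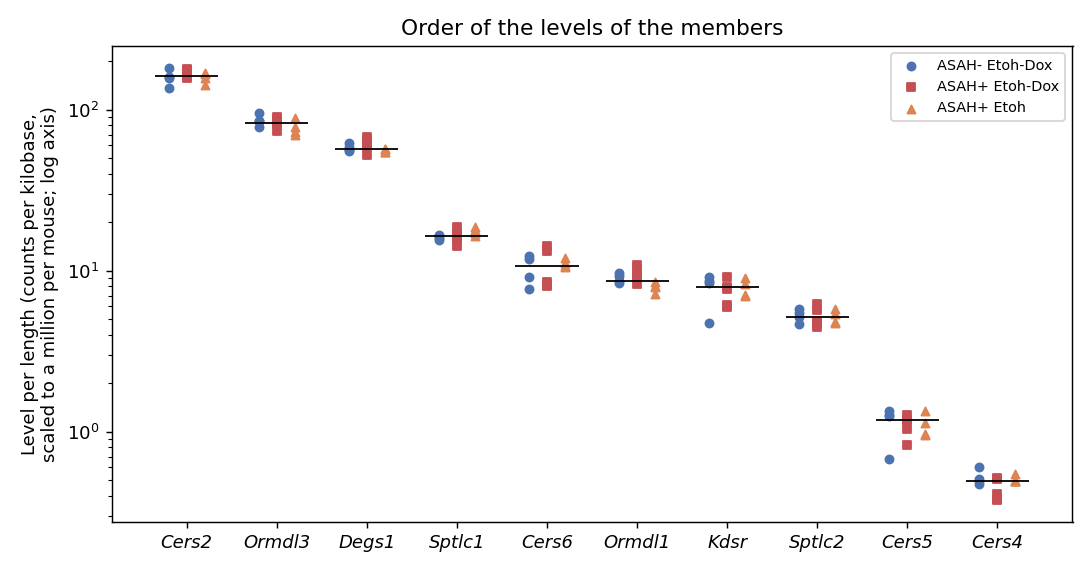
Level per length of the 10 members (counts per kilobase of the union of exons, scaled to the same total in every mouse, log axis) in each of 13 mice, ordered by median (black line), with a symbol for each group. Cers2 is highest in every mouse and Cers4 lowest, and among the 4 genes from Cers6 to Sptlc2 each overlaps with the next in this order.

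Sptlc1 and Sptlc2 encode the core subunits of SPT. Sptlc1 (chr13:53332748-53377397, minus strand, GRCm38) ranged over 24.7 to 27.4 CPM in ASAH- mice, 22.9 to 30.3 in induced mice and 26.1 to 30.4 in uninduced mice, with 525 to 892 counts a mouse. Sptlc2 (chr12:87305058-87388355, minus strand) ranged over 17.6 to 21.3, 16.3 to 21.3 and 16.7 to 21.3 CPM in the same groups, with 362 to 729 counts. Neither subunit parted any pair of groups, and each varied little over the 13 mice, with the highest mouse 1.32-fold above the lowest for Sptlc1 and 1.31-fold for Sptlc2. The log2 fold change between induced and ASAH- mice was -0.02 for Sptlc1 (95% interval -0.20 to 0.17) and -0.07 for Sptlc2 (-0.29 to 0.15). Between induced and uninduced mice it was -0.10 for Sptlc1 (-0.28 to 0.08) and -0.01 for Sptlc2 (-0.23 to 0.21). With a mouse left out, the first comparison ranged for Sptlc1 from -0.0720 (without induced mouse 3) to 0.0330 (without induced mouse 5), and for Sptlc2 from -0.125 (without induced mouse 2) to -0.0181 (without induced mouse 5). The second ranged for Sptlc1 from -0.172 (without induced mouse 3) to -0.0631 (without uninduced mouse 4), and for Sptlc2 from -0.0694 (without induced mouse 2) to 0.0442 (without uninduced mouse 4). Each of these shifts lay within the intervals. The antisense neighbours Gm26764 and Gm48806 overlap Sptlc2, and a gene and its antisense partner can be told apart only where counting used the strand of the library. The 3 genes with the highest correlation of log2 CPM with Sptlc2 over the 13 mice, out of all genes tested, were Fbxw17 (Pearson r = 0.868, Spearman rho = 0.863), Notch3 (0.856 and 0.852) and Map3k8 (0.839 and 0.879), each at a mean of 1.02 to 2.23 CPM, far below the 18.9 CPM of Sptlc2. No test was made of such correlations, and the highest of so many can be high by selection alone.

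Other subunits and partners of SPT were listed beside the members. Sptlc3, an alternative to Sptlc2, had 0 counts in 13 of 13 mice, so that its level was under the 3 counts that a count of 0 allows, or 0.083 to 0.173 CPM by mouse. These floors cover counting error only. Sptssb, a small subunit, had 0 to 2 counts a mouse, whereas its counterpart Sptssa had a median level per length of 51.64 and the reticulon Rtn4, which also binds SPT, had 41.78. The log2 fold changes between induced and ASAH- mice were -0.06 for Sptssa (-0.0978 to -0.00842 over 21 alternatives) and 0.04 for Rtn4. Between induced and uninduced mice they were -0.03 for Sptssa and -0.00 for Rtn4. With all 13 mice both genes were within a standard error of 0 in these comparisons, and neither passed edgeR's test in any comparison. DESeq2 called neither, but between induced and uninduced mice it gave an adjusted p-value to only 1 of the 3 genes tested here (Sptssa, Rtn4 and Ormdl2).

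**Figure D2:**
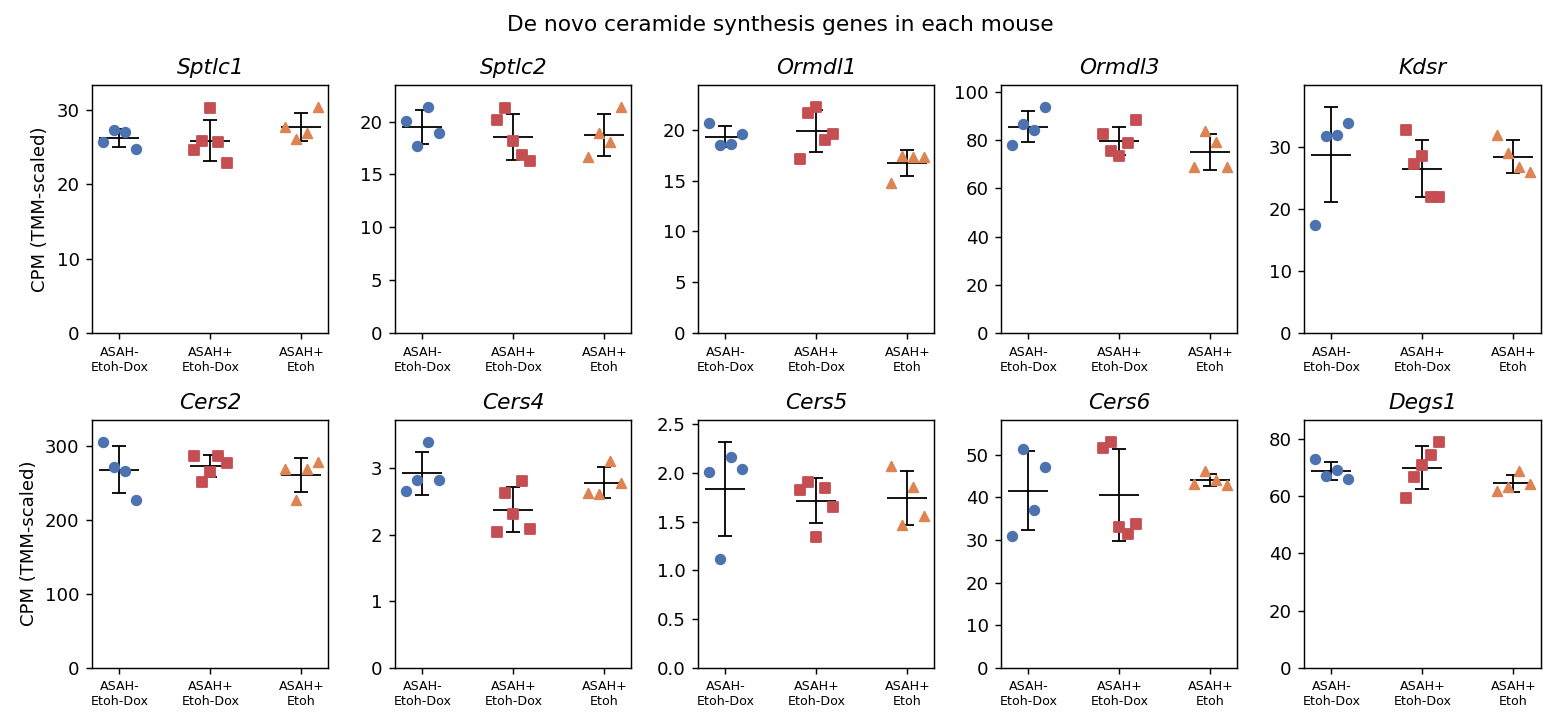
CPM (TMM-scaled, axis from 0) of the 10 members in each mouse, with a point per mouse and the mean ± SD of each group (4, 5 and 4 mice). The 4 uninduced mice are below the 4 ASAH- mice in Ormdl1. The spread within groups is widest in Kdsr, Cers5 and Cers6, apart from the narrow range of the uninduced mice in Cers6.

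The ORMDL proteins are the inhibitory subunits of SPT. Ormdl1 (chr1:53297095-53310309, plus strand) was at 20.6, 18.5, 18.6 and 19.6 CPM in ASAH- mice, at 17.1, 21.6, 22.2, 19 and 19.6 CPM in induced mice, and at 14.8, 17.4, 17.4 and 17.4 CPM in uninduced mice. The mice without Dox were thus below each of the 4 ASAH- mice and below 4 of the 5 induced mice, of which only mouse 1 overlapped with them. Group means were 19.3 ± 1.02 (SD, n = 4), 19.9 ± 2.05 (SD, n = 5) and 16.7 ± 1.28 CPM (SD, n = 4). Ormdl1 had a log2 fold change of 0.25 between induced and uninduced mice (standard error 0.0911, 95% interval 0.06 to 0.45, adjusted p = 0.568 by edgeR). It was 0.21 between ASAH- and uninduced mice (standard error 0.0959, interval 0.00 to 0.41, adjusted p = 0.536 by edgeR), and 0.04 between induced and ASAH- mice (interval -0.15 to 0.24, with 0.00722 without induced mouse 3 and 0.0949 without induced mouse 1). Ormdl1 therefore did not pass the test in any comparison, and the first 2 differences share the uninduced mice. In these the summed level of 6 of 6 Kupffer cell markers, with Clec4f the most abundant, was 176.9 to 210.7 CPM, below the 223.3 to 468.6 CPM of ASAH- mice and overlapping with the 168.4 to 317.3 CPM of induced mice. The summed level of 3 of 3 erythroid markers, with Hbb-bs the most abundant, was 90.79 to 125.0 CPM in uninduced mice, below the 135.0 to 989.5 and 156.8 to 531.0 CPM of ASAH- and induced mice. Both lists are given because their sums parted groups, after the values were seen. The part of these cells in the level of Ormdl1 was not tested.

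Gm28778, annotated on the same strand over Ormdl1, could take some of its reads. It was chosen after its values were seen. It had 54, 3, 30, 0 and 0 counts in induced mice, 0 in ASAH- mice, and 0, 0, 0 and 13 counts in uninduced mice, against 300 to 619 counts of Ormdl1. With its counts added to Ormdl1, which raise mainly induced mice 1 and 3, the induced mice were above the uninduced mice by 0.27 log2 units in the fit (standard error 0.0902, adjusted p = 0.533 by edgeR). That 5 of 5 were then above 4 of 4 follows from the 54 counts in induced mouse 1, the only one that had overlapped, and groups did not overlap for 2.58% of all genes. The sum was likewise short of the threshold between ASAH- and uninduced mice, at 0.19 (adjusted p = 0.565 by edgeR).

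Ormdl3 (chr11:98581256-98587368, minus strand), the ORMDL gene with the highest level per length, was at 77.8, 86.7, 84.4 and 93.6 CPM in ASAH- mice, 82.7, 75.4, 73.6, 78.9 and 88.3 CPM in induced mice, and 68.8, 83.9, 79.1 and 69.0 CPM in uninduced mice. The groups overlapped, with uninduced mice 1 and 4 the lowest of the 13. For Ormdl3 the log2 fold change was 0.19 between ASAH- and uninduced mice (standard error 0.0910, interval -0.01 to 0.38, adjusted p = 0.562 by edgeR), -0.10 between induced and ASAH- mice and 0.08 between induced and uninduced mice. Of the latter 2 values, the first was -0.0570 without ASAH- mouse 4, and the second ranged from 0.0375 without uninduced mouse 4 to 0.141 without uninduced mouse 2. Ormdl2, with a median level per length of 33.73 between those of Ormdl1 and Ormdl3, had log2 fold changes of 0.03, 0.05 and 0.08 in these comparisons. The genes most correlated with Ormdl3 across the 13 mice were Mcrip2 (r = 0.854, rho = 0.874), Rtkn (0.842 and 0.890) and Polr3e (0.839 and 0.786). These values too can be high by selection alone.

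Kdsr encodes the reductase of the second step. Its level (chr1:106720459-106759727, minus strand) was 17.4, 31.8, 31.8 and 33.8 CPM in ASAH- mice, 32.6, 27.1, 28.5, 21.9 and 21.9 CPM in induced mice, and 31.9, 29.0, 26.7 and 26.0 CPM in uninduced mice. ASAH- mouse 1 had the lowest level of the 13 mice, while the other 3 mice of its group were among the highest. The groups overlapped, at means of 28.7 ± 7.59 (SD, n = 4), 26.4 ± 4.60 (SD, n = 5) and 28.4 ± 2.67 CPM (SD, n = 4). Kdsr had a log2 fold change between induced and ASAH- mice of -0.12, with an interval of -0.49 to 0.25, wider than those of the SPT subunits. This value was -0.288 without ASAH- mouse 1 and -0.0311 without ASAH- mouse 4. Against uninduced mice it was -0.10 for induced mice (interval -0.48 to 0.27) and 0.02 for ASAH- mice (interval -0.38 to 0.41). The first of these was -0.201 without induced mouse 1 and -0.0423 without induced mouse 4, and the second was 0.177 without ASAH- mouse 1 and -0.0724 without ASAH- mouse 4.

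The 4 ceramide synthases measured differ in the acyl chain that they add. Cers2 (chr3:95314791-95323599, plus strand), which prefers very long chains, was at 227 to 305 CPM in ASAH- mice, 251 to 286 CPM in induced mice and 226 to 278 CPM in uninduced mice, with 4804 to 10348 counts a mouse. The groups overlapped, and the log2 fold change of Cers2 was 0.03 between induced and ASAH- mice (interval -0.17 to 0.23), 0.07 between induced and uninduced mice (-0.13 to 0.27) and 0.04 between ASAH- and uninduced mice (-0.17 to 0.25). Without ASAH- mouse 1 the first of these was 0.108 and the last -0.0469, without ASAH- mouse 4 they were -0.0401 and 0.108, and without uninduced mouse 2 the second was 0.00643. Its first promoter window, printed with those of Cers6 and Degs1, holds the CACGTG, and its second window does not. The genes 6330562C20Rik and Setdb1 lie on the opposite strand over Cers2. The genes most correlated with Cers2 across the 13 mice were Babam2 (r = 0.964, rho = 0.951), Adamtsl1 (0.949 and 0.852) and Gmppa (0.930 and 0.879). Their mean levels were 21.1, 0.886 and 14.4 CPM, far below the 267 CPM of Cers2. As with Sptlc2, such values can be high by selection alone.

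Cers6 (chr2:68861441-69114282, plus strand), which prefers palmitate, was at 30.9, 51.2, 37.1 and 47.1 CPM in ASAH- mice, 51.6, 53.0, 32.9, 31.5 and 33.8 CPM in induced mice, and 43.2, 46.1, 44.1 and 42.9 CPM in uninduced mice. Mice on Dox of both genotypes lay on either side of the narrow range of the uninduced mice, with ASAH- mice 2 and 4 and induced mice 1 and 2 above it and the other 5 below it. The means differed little, at 41.6 ± 9.30 (SD, n = 4), 40.6 ± 10.7 (SD, n = 5) and 44.1 ± 1.46 CPM (SD, n = 4). Log2 fold changes of Cers6 were -0.04 between induced and ASAH- mice (interval -0.42 to 0.35), -0.12 between induced and uninduced mice (-0.50 to 0.27) and -0.08 between ASAH- and uninduced mice (-0.49 to 0.32). No difference between groups was detectable against this spread. The first difference was -0.150 without induced mouse 2 and 0.0800 without ASAH- mouse 2, the second was -0.233 without induced mouse 2 and -0.0399 without induced mouse 4, and the last was -0.199 without ASAH- mouse 2 and 0.0215 without ASAH- mouse 1. In the annotation 6 genes of uncertain coding status lie within Cers6 on its strand, and reads could be divided among them.

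Cers4 (chr8:4493026-4531680, plus strand), which prefers long acyl chains, was at 2.65, 2.81, 3.39 and 2.83 CPM in ASAH- mice, 2.05, 2.63, 2.31, 2.81 and 2.08 CPM in induced mice, and 2.63, 2.60, 3.11 and 2.78 CPM in uninduced mice. The 3 lowest mice were all induced, and the other 2 induced mice lay within the range of the uninduced mice. These levels rest on 48 to 83 counts a mouse. The summed level of 5 of 5 stellate cell markers, with Dcn the most abundant, was 177.1 to 226.8 CPM in induced mice, below the 228.4 to 273.8 CPM of ASAH- mice. In uninduced mice this sum was 192.0 to 245.3 CPM and overlapped with both other groups. Of the marker lists, this one is given because its sum parted groups, after the values were seen. The part of these cells in the level of Cers4 was not tested. For Cers4 the log2 fold change was the most negative of the members between induced and ASAH- mice, at -0.30 (standard error 0.146, interval -0.61 to 0.02, adjusted p = 1.00 by edgeR), and was -0.23 between induced and uninduced mice (interval -0.54 to 0.09). Cers5 (chr15:99734881-99772885, minus strand), which like Cers6 uses palmitate, had 27 to 66 counts a mouse and 1.12 to 2.16, 1.34 to 1.91 and 1.47 to 2.07 CPM in the 3 groups, which overlapped. Its log2 fold change between induced and ASAH- mice was -0.09, with an interval of -0.55 to 0.36, and was -0.272 without ASAH- mouse 2 and -0.00473 without ASAH- mouse 3. Gm36956 and Vmn2r-ps89 lie antisense to Cers4, and Gm17058 antisense to Cers5. Cers1 and Cers3, mainly of other tissues, had 0 to 1 and 0 to 2 counts a mouse and were not tested.

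As a share of the summed level per length of these 4 ceramide synthases, Cers2 held a mean of 93.0% ± 1.41 (SD, n = 13 mice). Cers6 held 6.11% ± 1.36, Cers5 held 0.638% ± 0.122 and Cers4 held 0.280% ± 0.0464 of that sum. By group, the share of Cers2 per length was 92.9% in ASAH- mice, 93.4% in induced mice and 92.5% in uninduced mice, and ranged over 91.0 to 95.1% in single mice. The share of Cers6 per length ranged from 3.99 to 7.96%.

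Degs1 encodes the desaturase of the last step. Its level (chr1:182275772-182282804, minus strand) was 72.8, 67.1, 69.1 and 66.0 CPM in ASAH- mice, 59.3, 66.5, 70.8, 74.2 and 78.8 CPM in induced mice, and 61.8, 63.1, 68.7 and 64.2 CPM in uninduced mice. Induced mice held both the lowest and the highest mouse, so that this group overlapped with both others. Degs1 had log2 fold changes of 0.02 between induced and ASAH- mice (interval -0.15 to 0.20), 0.12 between induced and uninduced mice (-0.06 to 0.29) and 0.09 between ASAH- and uninduced mice (-0.09 to 0.28). The first was -0.0142 without induced mouse 5 and 0.0790 without induced mouse 1, the second was 0.0631 without induced mouse 5, and the last was 0.0484 without ASAH- mouse 1. Degs2, its homologue, had 0 to 6 counts a mouse and was not tested.

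Over the members, 0 of 10 passed edgeR's test at an adjusted p-value of 0.1 between induced and ASAH- mice, where 2 of 14317 genes did (0.014%). None of the 10 had an unadjusted p-value under 0.05 (0 of 10, and 409 of all genes), DESeq2 called 0 of 10 with an adjusted p-value for each (12 of 15808 genes, 0.0759%), and 0 of 10 had groups that did not overlap (0.887% of all genes). Their median log2 fold change was -0.05, with 3 positive and 7 negative, and that of all genes was -0.00. This comparison asks what the transgene changes when both genotypes receive Dox. The intervals of Sptlc1, Sptlc2, Ormdl1, Ormdl3, Cers2 and Degs1 lay between -0.29 and 0.24. Those of Kdsr, Cers4, Cers5 and Cers6 were wider and reached from -0.61 (Cers4) to 0.36 (Cers5), so larger differences were not excluded for these genes.

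Between induced and uninduced mice, which asks what Dox and induction change within a genotype, 0 of 10 members passed edgeR's test (0.014% of all genes), 1 had an unadjusted p-value under 0.05 (Ormdl1, and 1044 of all genes), and DESeq2 called 0, with an adjusted p-value for 3 of the 10 after its own filter (98 of 1982 genes called, 4.94%). Again 0 of 10 had groups that did not overlap (2.58% of all genes). The median log2 fold change of the members was -0.02 against 0.01 for all genes. Between ASAH- and uninduced mice, which differ in both the transgene and Dox, 0 of 10 passed edgeR's test (0.014% of all genes), 1 had an unadjusted p-value under 0.05 (Ormdl1, and 1316 of all genes), and DESeq2 called 0, with an adjusted p-value for 8 of the 10 (149 of 8625 genes called, 1.73%). Here 1 of 10, Ormdl1, had groups that did not overlap (5.5% of all genes). The median was 0.06 against 0.02 for all genes, with 8 positive and 2 negative. The 3 comparisons share mice, so that none repeats another.

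**Figure D3:**
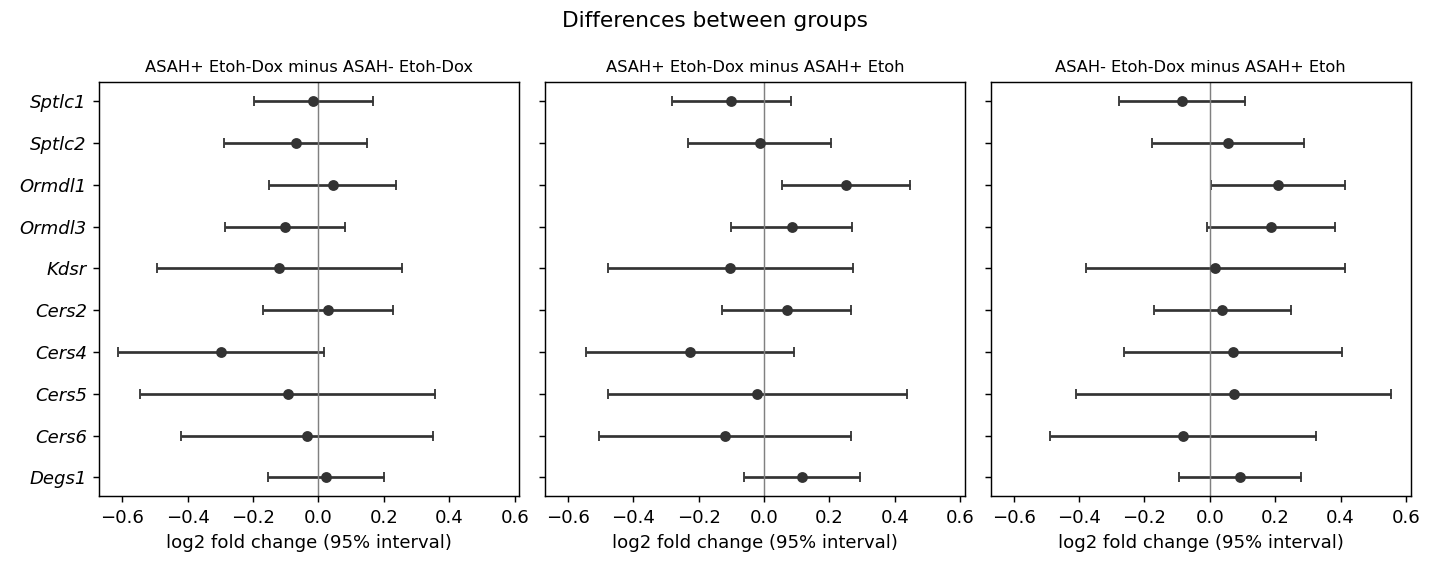
Log2 fold change of each member (point) with its 95% interval (bar) from edgeR in the 3 comparisons, with 0 marked by a line. The intervals of Ormdl1 end above 0 in both comparisons with uninduced mice, with no adjusted p-value under the threshold, and those of Kdsr, Cers4, Cers5 and Cers6 are the widest.

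Genes that feed the pathway or use its product were read from 3 further lists. For serine supply, 6 of 7 genes were tested and 0 passed edgeR's test in each comparison (0 to 1 at an unadjusted p-value under 0.05). Of all 14317 genes, 2 passed in each comparison. An unadjusted p-value under 0.05 was reached by 409, 1044 and 1316 of all genes (induced against ASAH-, induced against uninduced, and ASAH- against uninduced mice). In this order the median log2 fold changes of the serine supply genes were 0.01, 0.06 and 0.16. The smallest p-values were those of Psat1 (log2 fold change 0.56, on 4 to 20 counts a mouse) and Shmt2 (-0.12) in the first comparison, Psph (0.40) and Shmt2 (0.19) in the second, and Shmt2 (0.31) and Psph (0.37) in the third. For acyl-CoA supply, 21 of 21 genes were tested and 0 passed, with medians of 0.01, -0.02 and -0.03. In each comparison 0 to 1 of them had an unadjusted p-value under 0.05, beside the same counts of all genes. The smallest p-values were those of Dbi (0.19) and Acbd5 (0.15), Acsl5 (0.30) and Hsd17b12 (0.16), and Elovl1 (0.24) and Acbd5 (-0.17). Single mice moved several of these values. In the first comparison Psat1 ranged from 0.369 without induced mouse 4 to 0.867 without ASAH- mouse 3, Shmt2 from -0.212 without induced mouse 1 to -0.0581 without ASAH- mouse 2, and without ASAH- mouse 4 Dbi was 0.0915 and Acbd5 was 0.256. In the second, Shmt2 was 0.0852 without induced mouse 1, and without induced mouse 3 Acsl5 was 0.162 and Hsd17b12 was 0.0831. In the last, Elovl1 ranged from 0.137 without ASAH- mouse 3 to 0.394 without ASAH- mouse 4, and Acbd5 was -0.279 without the latter. DESeq2 called 0 genes of either list in any comparison, with an adjusted p-value for 6, 2 and 3 genes of serine supply and 21, 14 and 19 of acyl-CoA supply, beside the 0.0759%, 4.94% and 1.73% of all genes that it called.

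For ceramide use and salvage, 20 of 24 genes were tested. In both comparisons with induced mice 1 passed, Asah1 itself, and 0 passed between ASAH- and uninduced mice, beside 2 of all 14317 genes in each. In the order above 2, 3 and 5 genes of the list had an unadjusted p-value under 0.05, with Asah1 in the first 2 counts. Of all genes 409, 1044 and 1316 did. DESeq2 called 1, 1 and 0 genes of the 22, 3 and 18 to which it gave an adjusted p-value, and the 1 was again Asah1. Of all genes it called 0.0759%, 4.94% and 1.73%. The medians were 0.02, -0.06 and -0.03 beside -0.00, 0.01 and 0.02 for all genes. After Asah1, the 2 smallest p-values were those of Samd8 (log2 fold change 0.31, and 0.2095 without induced mouse 1) and Sgms2 (0.25) between induced and ASAH- mice, and Sgms1 (-0.36) and Ugcg (-0.33) between induced and uninduced mice. Between ASAH- and uninduced mice they were Samd8 (-0.45, adjusted p = 0.389 by edgeR) and Sgms1 (-0.43, adjusted p = 0.418 by edgeR), each lower in 4 of 4 ASAH- mice than in any uninduced mouse. Groups did not overlap in this way for 5.5% of all genes, in either direction.

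Members also varied between mice of a group, with an SD of log2 CPM within groups of 0.302 for Kdsr, 0.298 for Cers6 and 0.290 for Cers5, against 0.113 for Sptlc1 and 0.111 for Degs1. The co-variation of the members was described over the 13 mice for 45 pairs, with no test. The values of a pair come from the same libraries and share their scaling. Of the 45 Pearson correlations of log2 CPM 21 were positive and 24 negative, with a median of -0.01, and 4 were beyond 0.6 in size. Degs1 and Cers6 had the strongest, r = -0.766 (Spearman rho = -0.709), and r of their deviations from the group means was -0.758. Without the 2 mice farthest from the median of the first gene named it was -0.733. Kdsr had r = 0.697 with Cers6 (rho = 0.632, deviations 0.689) and r = -0.695 with Degs1 (rho = -0.687, deviations -0.714). Without the 2 farthest mice these were 0.444 and -0.660, so that the first rested in part on those mice. Single mice departed from these relations, such as uninduced mouse 4, which was among the lowest in both Degs1 and Kdsr. Sptlc1 and Ormdl3 also varied in opposite directions, with r = -0.693 (rho = -0.571, deviations -0.710, and -0.517 without the 2 farthest mice). The other pairs of an SPT subunit with Ormdl1 or Ormdl3 did not share this. Their r was -0.0867 for Sptlc1 and Ormdl1, -0.133 for Sptlc2 and Ormdl3, and 0.198 for Sptlc2 and Ormdl1.

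**Figure D4:**
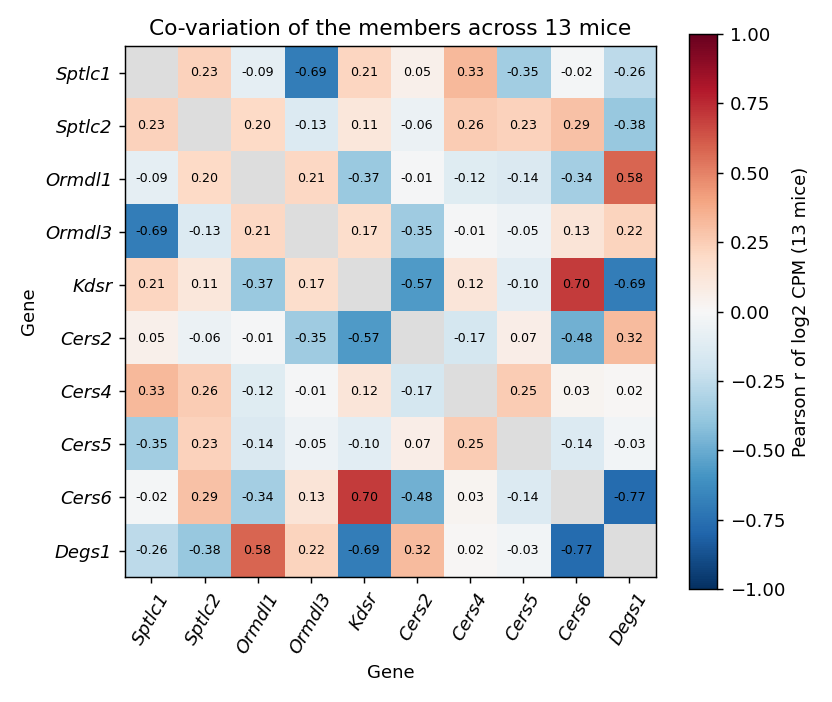
Pearson r of log2 CPM over 13 mice for each pair of members, from -1 (blue) to 1 (red), with the value in each square. Kdsr and Cers6 are positive with each other and negative with Degs1, and Sptlc1 is negative with Ormdl3.

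The levels of clock genes differed between these mice, and were summarised as the log2 ratio of the CPM of Dbp to that of Arntl, clock genes that peak at opposite times of day. These genes, and this use of them, were chosen after the data were seen. The ratio was -0.96, 6.49, 1.81 and 6.11 in ASAH- mice, 6.64, 6.78, -1.64, 0.15 and 2.70 in induced mice, and 4.45, 6.06, 5.05 and 1.60 in uninduced mice. The groups overlapped, with means of 3.36, 2.93 and 4.29, and the labels give no time of collection. The ratio was then added as a continuous term to the group means in edgeR's fit of all genes. Its slope passed the test for 1371 of 14317 genes (9.58%), of which 693 were positive and 678 negative, and for 1 of the 10 members. A share of 1 in 10 is near the background and says nothing of the members as a list.

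That member was Cers6, whose level rose with the ratio by 0.0841 log2 units per unit of log2 ratio (standard error 0.0121, 95% interval 0.0580 to 0.110, adjusted p = 0.00141 by edgeR over 13 mice). Within ASAH- mice and within uninduced mice the order by Cers6 was the order by the ratio, and among induced mice only mice 3 and 4 were out of this order. Its slope passed in 21 of 21 alternatives, with adjusted p-values from 2.84e-08 (DESeq2) to 0.0416 (edgeR with the replicate number as a block). With the ratio of Nr1d1 to Npas2, other genes of opposite phase, in place of Dbp to Arntl, the slope of Cers6 was 0.164 (adjusted p = 0.0176 by edgeR). With the term in the fit the standard error of the difference in Cers6 between induced and ASAH- mice was 0.0847, against 0.179 without it. The log2 fold change was then -0.00, with an interval of -0.19 to 0.18. With the term 0 of 10 members passed edgeR's test in any of the 3 comparisons, beside 2, 2 and 1 of all 14317 genes. The window of Cers6 printed with the promoters holds a CACGTG, as do those of Degs1 and Cers2, whose slopes of -0.0200 each did not pass (adjusted p = 0.332 and 0.407 by edgeR).

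Kdsr had the second largest slope of the members, 0.0509 (standard error 0.0216, 95% interval 0.00442 to 0.0974), and did not pass (adjusted p = 0.205 by edgeR). It passed in 1 of 21 alternatives, without induced mouse 3 (slope 0.0815, adjusted p = 0.0342 by edgeR), and without ASAH- mouse 1 the slope was 0.0249. The slopes of the other members were 0.0201 for Ormdl3, -0.0168 for Sptlc1, -0.0126 for Ormdl1, -0.00776 for Cers4, 0.00340 for Sptlc2 and -0.000544 for Cers5. The number of genes that passed was 632 without ASAH- mouse 1 and 900 without induced mouse 4, against 1371 with all mice, and Cers6 passed in both. The 3 genes most correlated with Cers6 over the 13 mice, chosen after their values were seen, were Pdcd11 (r = 0.957, rho = 0.923), Dclre1a (0.929 and 0.896) and Lmo7 (0.928 and 0.885).

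**Figure D5:**
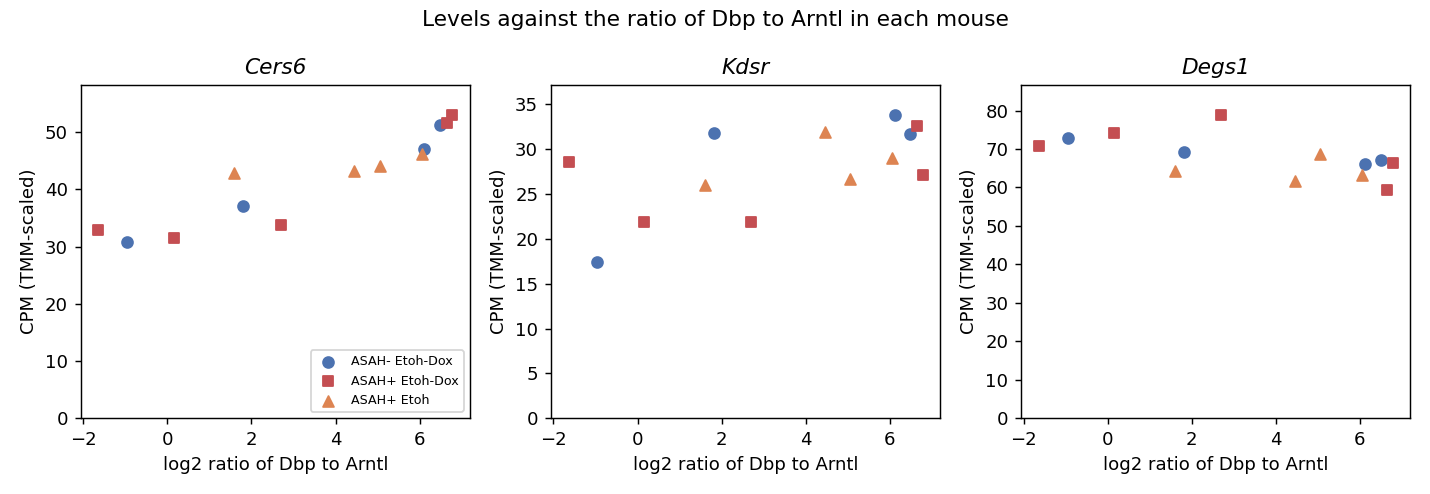
CPM (TMM-scaled, axis from 0) of Cers6, Kdsr and Degs1 in each of 13 mice against the log2 ratio of Dbp to Arntl, with a symbol for each group. Cers6 is higher in mice with a higher ratio within each group, except between induced mice 3 and 4, and the points of Kdsr and Degs1 are more scattered.

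Of the other lists, the slope of the ratio passed for 0 of 3 other de novo genes, 1 of 6 serine supply genes (16.7%), 4 of 21 acyl-CoA supply genes (19%) and 4 of 20 genes of ceramide use and salvage (20%), beside 9.58% of all genes. The serine supply gene was the transporter Slc1a4 (slope -0.213, adjusted p = 0.0108 by edgeR). The acyl-CoA genes were the elongases Elovl5 (-0.107) and Elovl3 (-0.141), the acyl-CoA synthetase Acsl5 (-0.0478) and the dehydratase Hacd2 (-0.0386), each with a negative slope. In ceramide use, Ugcg (0.0548) and Sgms2 (0.0492), which make glucosylceramide and sphingomyelin, had positive slopes like Cers6, and Sphk2 (-0.0865) and Sgpl1 (-0.0437), which act on sphingosine and its phosphate, had negative ones. These 9 genes were named after their values were seen, and adjusted p-values by edgeR for the 8 after Slc1a4 were 0.00937 to 0.0855. Of 21 alternatives the slope passed in 20 for Slc1a4 and Elovl5, 18 for Sphk2 and Ugcg, 16 for Acsl5 and Sgms2, 12 for Elovl3, 9 for Sgpl1 and 5 for Hacd2, with adjusted p-values up to 0.385. Among the 13 fits without a single mouse, Slc1a4 and Elovl5 passed in each. Sphk2 did not pass without induced mouse 2, Ugcg without ASAH- mouse 1, and Acsl5 and Sgms2 without ASAH- mouse 1, induced mouse 1 or induced mouse 3. Elovl3, Sgpl1 and Hacd2 did not pass in 6, 8 and 11 of these fits, so their calls depended on single mice of more than 1 group. Without the 2 mice farthest from the median ratio only Sphk2 of the 9 genes passed (adjusted p = 0.105 for Slc1a4 and 0.135 for Elovl5 by edgeR). With the ratio of Nr1d1 to Npas2, Sphk2, Elovl3, Sgpl1 and Hacd2 did not pass, and with the replicate number as a block only Slc1a4 and Elovl5 did.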

How the data were processed

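RNA of flash-frozen liver from 13 mice was made into stranded poly(A) libraries. The authors mapped single reads with salmon to GENCODE M19 transcripts of the mouse (GRCm38.p6) and summed them to genes with tximport, and the deposited values are expected counts per gene, rounded to whole numbers and not scaled. Whether counting used the strand is not given in the sources used here. Gene names, positions and lengths came from GENCODE M21, which held 53355 of the 53392 identifiers.

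Genes were kept by edgeR's filter for the 3 groups, scaled by TMM and fitted by edgeR 4.0.16 (R 4.3.3), with robust quasi-likelihood and 3 group means over 13 mice. Adjustment was by Benjamini and Hochberg's method over 14317 genes, and 0.1 was the threshold. The standard error is the log2 fold change over the root of F. Log2 CPM used a prior count of 2. Counting error, set by 17819486 to 35358711 counts a mouse, is larger for Cers4 and Cers5 than for the other members. The alternatives were DESeq2 1.42.0, its size factors, edgeR on the compared groups, no filter, a filter of 10 counts in every mouse, totals without Asah1, the replicate number as a block, a threshold of 0.05, each mouse left out, the longest transcript as the length, and a covariate for the Dbp to Arntl ratio. The alternatives for the slope on this ratio and the sum of Ormdl1 and Gm28778 were chosen after the data were seen. The fits were tested on simulated data, for the groups with 200 genes changed 2-fold. Differences between groups as small as those of the members were not simulated.

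The members and lists were chosen with earlier results of these data known. Genes named were the 10 members, the other de novo genes, Asah1, genes of the other lists past the threshold or else the 2 with the smallest p in each list and comparison, and the 3 genes with the highest r to Sptlc2, Cers2 and Ormdl3. Others are said to be chosen after their values were seen. Dbp to Arntl entered only as a continuous value.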

Additional observations from a re-analysis of the deposited data

Results flagged for a closer look

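The highest or lowest mouse was compared with the others of its group of 4 or 5 mice in 111 sets. A set was the CPM of a gene, the share of a ceramide synthase or the summed CPM of a marker list in a group. In 6 sets this mouse stood far from the others, and chance gives about 1 in 20. All 6 were the CPM of a gene, so their share among the sets of genes alone is higher. Kdsr was 17.39 CPM in ASAH- mouse 1, with 31.75 to 33.79 CPM in the other 3. Cers5 was 1.118 CPM in ASAH- mouse 2, with 2.009 to 2.163 CPM in the other 3. Ormdl1 was 14.79 CPM in uninduced mouse 1, with 17.35 to 17.38 CPM in the other 3. Rtn4 was 119.6 CPM in ASAH- mouse 1, with 130.2 to 131.9 CPM in the other 3. Acsl5 was 647.3 CPM in induced mouse 3, with 408.2 to 463.2 CPM in the other 4. Shmt2 was 232.4 CPM in induced mouse 1, with 163.8 to 179.5 CPM in the other 4.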

How the results depend on the processing

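Of 30 differences of the members, 19 kept their direction in each of 21 alternatives. The other 11 were at most 0.08 in size, and reversed in 33 of 630 values. None of the 30 passed the threshold in any alternative (smallest adjusted p 0.410 by edgeR), but DESeq2 gave an adjusted p-value for only 10, 3 and 8 of the 10 members in the 3 comparisons. The difference of Ormdl1 between induced and uninduced mice stayed between 0.20 and 0.29. The cause of the changes below was not tested.

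Genes called between induced and ASAH- mice were 12 by DESeq2, 1 with edgeR on the compared groups and 1 to 2 with each mouse left out. Between induced and uninduced mice they were 98 by DESeq2, 4 with no filter and 2 to 8 with each mouse left out (8 without uninduced mouse 2). Between ASAH- and uninduced mice they were 149 by DESeq2, 0 with edgeR on the compared groups or an adjusted p under 0.05, 1 with the Dbp to Arntl ratio as a covariate and 0 to 2 with each mouse left out. For the slope on the ratio they were 717 with Nr1d1 to Npas2, 730 without the 2 mice farthest from the median ratio and 632 to 1608 with each mouse left out, with 1 to 2 members.

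Reversed log2 fold changes were those of Rtn4 between induced and uninduced mice, 0.00369 with no filter and 0.000622 with at least 10 counts in every mouse. Between ASAH- and uninduced mice, Kdsr was -0.000817 by DESeq2 and Ormdl2 was -0.000911 with the ratio as a covariate.

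With each mouse left out, log2 fold changes between induced and ASAH- mice ranged over -0.0720 to 0.0330 for Sptlc1, -0.0142 to 0.0790 for Degs1, -0.0401 to 0.108 for Cers2, -0.150 to 0.0800 for Cers6, -0.0683 to 0.117 for Ormdl2 and -0.0236 to 0.0852 for Rtn4. They ranged over -0.0694 to 0.0442 for Sptlc2, -0.0988 to 0.0748 for Cers5, -0.0560 to 0.145 for Ormdl2, -0.0783 to 0.0466 for Rtn4 and -0.0887 to 0.0202 for Sptssa between induced and uninduced mice, and over -0.0724 to 0.177 for Kdsr, -0.0469 to 0.108 for Cers2, -0.00790 to 0.111 for Cers4, -0.0169 to 0.250 for Cers5, -0.199 to 0.0215 for Cers6, -0.0242 to 0.0700 for Ormdl2 and -0.0244 to 0.0761 for Sptssa between ASAH- and uninduced mice.

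Shares of the ceramide synthases with the longest transcript as the length were 94.6% for Cers2, 4.73% for Cers6, 0.499% for Cers5 and 0.222% for Cers4, which follows from the lengths.

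The replicate numbers share only a number: mice with the same number deviated from their group means with a mean correlation of -0.0462 over 12 pairs (-0.265 to 0.190), and other pairs with 0.0126. With the replicate number as a block, genes called between induced and ASAH- mice were 1, between ASAH- and uninduced mice 0, and for the slope on the ratio 503. Under the block the log2 fold change between induced and ASAH- mice was 0.0219 for Sptlc1, -0.0263 for Degs1 and 0.0125 for Cers6, and between induced and uninduced mice 0.0287 for Sptlc2, 0.00495 for Cers5 and 0.0223 for Rtn4.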
